A study of Arabidopsis thaliana with 8 samples.

Results

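The comparison asked which transcripts differ in Arabidopsis thaliana apices when the 35S:GIF1 transgene is present. The 4 arrays of lines that carry it (35S:GIF1 and rGRF3x35S:GIF1) were set against the 4 arrays of lines that do not (Col-0 and rGRF3). All 8 arrays of the study entered the fit, 2 per genotype with the letters A and B, and 14005 of the 22746 probe sets other than controls were tested. GIF1 is a co-activator that binds no DNA itself and acts through GRF transcription factors, with which it forms a complex. In Arabidopsis the complex is known to promote cell proliferation in young leaves, it recruits SWI/SNF chromatin remodelling, and most GRF transcripts are cut by microRNA miR396. The groups were lines labelled as overexpressing GIF1 (35S:GIF1), GRF3 and GIF1 together (rGRF3x35S:GIF1), no transgene (Col-0, the wild type) and GRF3 alone (rGRF3, which in published work is a GRF3 that miR396 does not cut). The 35S promoter is known to be active in most plant tissues, and where GIF1 was expressed in these plants was not measured. The ecotype is written only for the Col-0 arrays, and neither the number of transgenic lines nor the number of plants per array is given in the sources used here. Each array was hybridised with RNA from vegetative apices, with their leaf primordia, of plants 20 days old grown on soil at 23 °C in short days (8 h of light, 16 h of darkness). Since Col-0 and rGRF3 supply the arrays without the transgene, the fitted effect is an average over lines without and with rGRF3, here called the 35S:GIF1 effect.

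The values are log2 signals, with array medians of 5.90 to 5.97, a floor of 2.12 and array maxima of 15.34 to 15.55. A log2 signal of 4 was taken as the lower end of measurable signal, which 60.3% to 60.7% of probe sets reached on each array. The annotation lists exactly 1 gene for 7599 of the tested probe sets, several for 282 and none for 6124, and those without a single gene are given by identifier. No GRF or GIF gene has a named probe set, so the transgene could not be read by gene name to check the labels. Of the 62 marker genes of 9 tissue lists, 8 had a named probe set. The meristem genes CLV3 and UFO were at the floor on all 8 arrays, with log2 signals of 2.12, and the remaining 9 meristem and boundary markers have no named probe set, so the meristem part of the label could not be checked. The young-leaf part could be. SPCH, which starts the stomatal lineage, had log2 signals of 7.50 to 8.18, and RCA, which encodes Rubisco activase of green leaf cells, had 14.12 to 14.72. EXPA7, a root hair gene, was at or near the floor, with 2.12 to 2.19. In 1 GAPDH control pair the 3′ probe set was above the 5′ probe set by 1.28 to 1.58 on 35S:GIF1-carrying arrays. On arrays without the transgene it was above by 1.44 to 1.59. Other control pairs were not alike. In 1 actin pair the 3′ means were 13.57 with the transgene and 13.62 without it, and the 5′ means 12.585 and 12.44. A second GAPDH pair went the other way, with 3′ means of 12.90 and 12.81 and 5′ means of 12.87 and 12.905. Whether RNA quality differed between the groups was not tested.

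Very few transcripts passed. In limma's fit with terms for the letter and rGRF3, 1 probe set was higher in the lines carrying 35S:GIF1 (0.00714% of those tested) and 1 was lower (0.00714%), together 0.0143%, at a Benjamini-Hochberg adjusted p under 0.05. At an unadjusted p under 0.05 there were 483 higher (3.45%) and 407 lower (2.91%), together 6.35%. In the same fit rGRF3 called 11 probe sets (0.0785%) and the letter 3921 (28%), with 18.1% and 41.5% at an unadjusted p under 0.05. What the letter marks is not stated in the labels. The median 35S:GIF1 effect over all 14005 probe sets was a log2 difference of 0.00, with 7055 above 0 (50.4%) and 6950 below (49.6%).

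The probe set that rose, 246103_at, has no gene in the annotation. Whether it reads the transgene itself or another transcript therefore could not be told here. Its log2 signal was 15.28 and 14.84 in 35S:GIF1 and 13.84 and 13.33 in rGRF3x35S:GIF1, against 9.14 and 9.23 in Col-0 and 9.12 and 8.60 in rGRF3 (letters A and B). All 4 arrays with the transgene stood far above all 4 without. The effect was a log2 difference of 5.30 (standard error 0.25, 95% interval 4.72 to 5.88, adjusted p = 0.00163), a 39.4-fold higher signal. The 35S:GIF1 arrays lie close to the array maxima, so the size is not exact. It was the only probe set whose 35S:GIF1 effect differed from its rGRF3 effect after adjustment (difference 6.20 on the log2 scale, adjusted p = 0.00603), and its rGRF3 effect was -0.90. Its log2 difference was 4.71 and 4.73 in the 2 pairs with rGRF3 and 6.14 and 5.61 in the 2 pairs without it, and the difference between these (-1.15, 95% interval -1.77 to -0.54 before adjustment) had an adjusted p of 0.998. Its call held without each array in turn, with adjusted p-values of 0.00259 to 0.0204.

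The gene that fell is STZ (AT1G27730, also called ZAT10), which encodes a C2H2 zinc-finger repressor that is induced by salt, cold and other stresses. STZ had log2 signals of 2.53 and 3.27 in 35S:GIF1 and 2.50 and 2.15 in rGRF3x35S:GIF1, against 6.44 and 5.74 in Col-0 and 5.39 and 5.52 in rGRF3. All 4 arrays with the transgene were under a log2 signal of 4, close to the floor, and all 4 without it were above 5. The fitted log2 difference was -3.16 (standard error 0.22, adjusted p = 0.0112). STZ entered the tested set through the 4 arrays without 35S:GIF1 alone, and with no filter on low values its adjusted p was 0.513. Because the low side is near the floor, the size is a bound: with the 4 low arrays set to a log2 signal of 4, STZ was at least 3.42-fold lower in the lines carrying 35S:GIF1. Within pairs the log2 difference was -3.91 and -2.47 for 35S:GIF1 minus Col-0 and -2.89 and -3.38 for rGRF3x35S:GIF1 minus rGRF3. The effect with rGRF3 minus the effect without it was 0.06 on the log2 scale (95% interval -1.08 to 1.19, adjusted p = 0.998). With both genotypes carrying 35S:GIF1 near the floor, this mostly compares the levels of rGRF3 and Col-0. STZ had an rGRF3 effect of -0.60, and its 35S:GIF1 effect differed from that by -2.56 without passing (adjusted p = 0.132). In extracts of whole apices, fewer cells of a type and less RNA per cell cannot be told apart. The call rests on all arrays of the lines with rGRF3: the adjusted p was 0.121 without rGRF3 A, 0.102 without rGRF3 B, 0.0839 without rGRF3x35S:GIF1 A and 0.169 without rGRF3x35S:GIF1 B, while the log2 difference stayed between -3.35 and -2.96 over the 8 omissions. It was also lost with a term for each genotype (adjusted p = 0.0661).

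**Figure D1:**
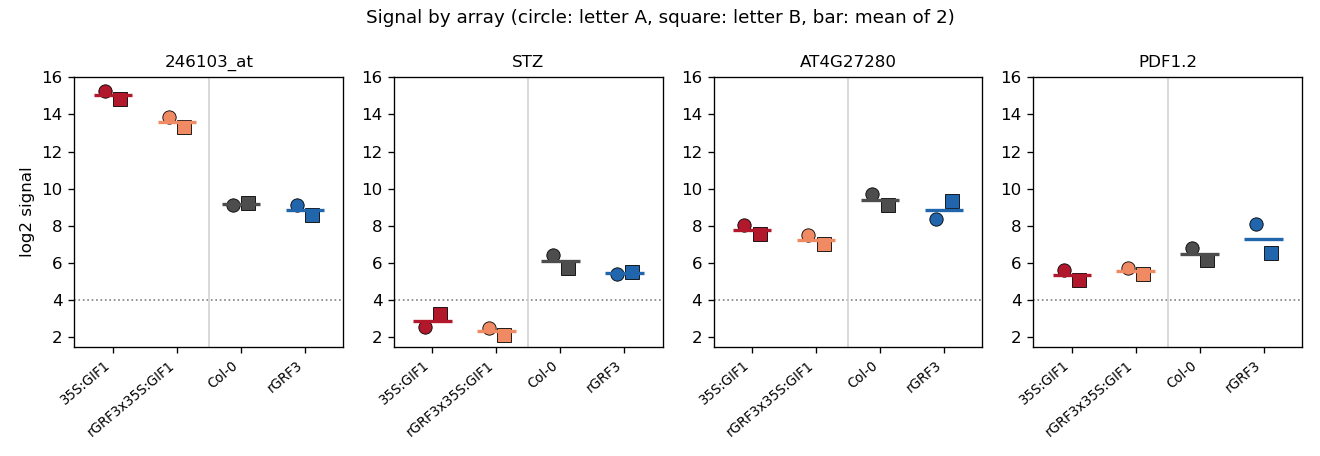
Log2 signal on each of the 8 arrays for 246103_at, STZ, AT4G27280 and PDF1.2, with circles for letter A, squares for letter B, bars for the mean of the 2 arrays of a genotype and a dotted line at a log2 signal of 4. The 2 genotypes carrying 35S:GIF1 stand left of the grey line, and in each panel their 4 arrays lie all above or all below the 4 arrays of Col-0 and rGRF3. 246103_at and STZ passed, AT4G27280 and PDF1.2 did not.

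No other gene passed, and the ones described next are those with the lowest p-values in each direction, given as values. All 10 named genes of the higher direction were above their matched array in all 4 pairs, and 3 had all 4 arrays above the other 4. Over all tested probe sets 7.76% were higher in all 4 pairs and 0.6% did not overlap in that direction, but since these 10 were taken for their low p-values the counts only describe them. Their effects were log2 differences of 0.41 to 1.02, with adjusted p-values of 0.374 to 0.698. All 10 also had an rGRF3 effect above 0. THI2.2 (AT5G36910), which encodes an antimicrobial thionin, had log2 signals of 8.13 and 9.25 in 35S:GIF1 and 9.50 and 10.29 in rGRF3x35S:GIF1, against 6.78 and 8.70 in Col-0 and 8.26 and 9.33 in rGRF3. The groups overlap for THI2.2, which was also higher on the B arrays, by 1.22. Its effect was 1.02 (standard error 0.17, adjusted p = 0.471) beside an rGRF3 effect of 1.13.

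AT2G22890, which encodes a FAD4-like fatty acid desaturase, had log2 signals of 6.28 and 6.31 in 35S:GIF1 and 6.79 and 6.66 in rGRF3x35S:GIF1, against 5.66 and 5.67 in Col-0 and 6.22 and 6.11 in rGRF3. This gene had the lowest p-value of the higher direction among named genes and its groups did not overlap, with an effect of 0.59 (standard error 0.07, adjusted p = 0.374) and an rGRF3 effect of 0.47. AT4G29420 had log2 signals of 4.36 and 4.21 in 35S:GIF1 and 4.49 and 4.49 in rGRF3x35S:GIF1, against 3.77 and 3.88 in Col-0 and 3.79 and 3.62 in rGRF3. It entered the tested set only through the arrays with 35S:GIF1, and the 4 others lie under a log2 signal of 4, so its lack of overlap and its fitted effect of 0.62 (adjusted p = 0.445) rest on values too low to size. AT2G19930, which encodes a putative RNA-dependent RNA polymerase, was the third gene without overlap. It had log2 signals of 4.79, 5.06, 5.11 and 5.07 on the arrays with 35S:GIF1, against 4.28, 4.59, 4.50 and 4.76 on those without (effect 0.48, adjusted p = 0.546). AT3G06070 had 8.00 and 7.45 in 35S:GIF1 and 7.98 and 7.33 in rGRF3x35S:GIF1, against 6.86 and 6.53 in Col-0 and 7.54 and 6.99 in rGRF3. Its log2 difference was 0.39 in the lines with rGRF3 and 1.03 in those without. The other named genes were the receptor-like kinase genes AT5G39020 (effect 0.69, under a log2 signal of 4 on 5 arrays) and AT1G07650 (0.41), the AP2/ERF factor gene AT4G31060 (0.55), the protease inhibitor gene AT1G72060 (0.53) and AT2G42330 (0.53). AT1G72060 had an rGRF3 effect of 1.26, larger in size than its 35S:GIF1 effect, without a passed difference.

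In the lower direction, 9 named genes beside STZ did not pass, with effects of -1.60 to -0.34 and adjusted p-values of 0.443 to 0.698. All 9 were below their matched array in all 4 pairs, beside 7.6% of all tested probe sets, and AT4G27280 and PDF1.2 did not overlap between the groups, beside 0.436%. These too were taken for their low p-values. AT4G27280, which encodes an EF-hand calcium-binding protein, had log2 signals of 8.04 and 7.56 in 35S:GIF1 and 7.49 and 7.01 in rGRF3x35S:GIF1, against 9.71 and 9.11 in Col-0 and 8.37 and 9.32 in rGRF3. Its effect was -1.60 (standard error 0.25, 95% interval -2.19 to -1.01, adjusted p = 0.443), with pairs from -2.31 to -0.88. PDF1.2 (AT5G44420), a plant defensin gene widely used as a marker of jasmonate and ethylene signalling, had log2 signals of 5.62 and 5.06 in 35S:GIF1 and 5.72 and 5.42 in rGRF3x35S:GIF1, against 6.81 and 6.17 in Col-0 and 8.10 and 6.51 in rGRF3. The 4 arrays with the transgene lay within 1 log2 unit of each other, and the highest value was on rGRF3 A. Its effect was -1.44 (standard error 0.23, 95% interval -1.98 to -0.91, adjusted p = 0.443), with an rGRF3 effect of 0.52.

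JAL23 (AT2G39330), which encodes a jacalin-related lectin, had log2 signals of 4.21 and 7.56 in 35S:GIF1 and 6.45 and 9.42 in rGRF3x35S:GIF1, against 6.28 and 8.56 in Col-0 and 7.47 and 10.06 in rGRF3. JAL23 was higher on the B arrays by 2.80, more than its 35S:GIF1 effect of -1.18 (adjusted p = 0.546), so the groups overlap although every pair points down. Its rGRF3 effect was 1.70, and the 35S:GIF1 effect minus the rGRF3 effect was -2.88 (standard error 0.30, adjusted p = 0.0761). AT2G34810, a berberine bridge enzyme-like gene, had the same arrangement, with an effect of -0.69, an rGRF3 effect of 0.75 and a letter difference of 1.73. AT1G72940, which encodes a TIR-domain protein of the kind found in immune receptors, had log2 signals of 5.72 and 4.56 in 35S:GIF1 and 4.85 and 4.48 in rGRF3x35S:GIF1, against 6.64 and 5.74 in Col-0 and 5.83 and 5.58 in rGRF3. Only 35S:GIF1 A reached into the range of the arrays without the transgene, and the 4 pairs were close to each other, from -1.18 to -0.92 (effect -1.05, adjusted p = 0.443). The remaining named genes were psbB (-1.16), psaC (-1.01), psbA (-0.56) and AT1G07615 (-0.34), the first 3 of which are plastid-encoded. Of probe sets without a listed gene, the lowest p-values of this direction belonged to 245250_at (effect -0.99, under a log2 signal of 4 on 6 arrays) and 258791_at (-1.16), and neither passed. The first, 245250_at, entered the tested set only through arrays without 35S:GIF1, Col-0 A (4.17) and rGRF3 B (4.01).

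**Figure D2:**
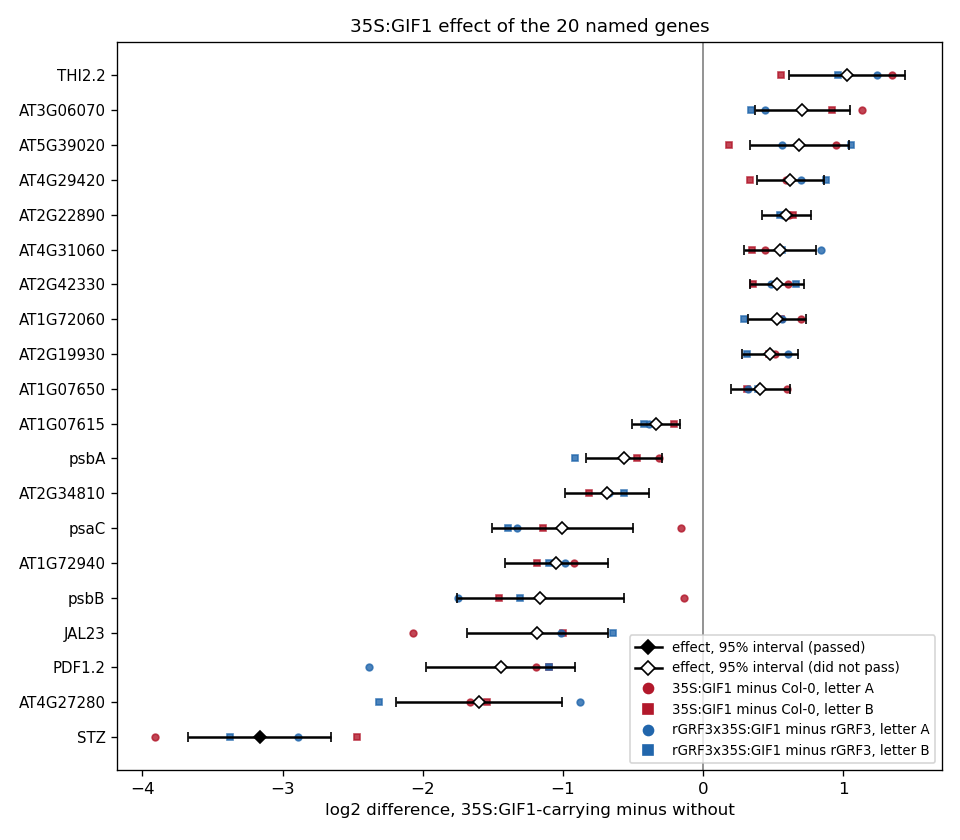
The 35S:GIF1 effect (diamonds, log2 difference, 35S:GIF1-carrying minus without) with its 95% interval for the 20 named genes, and the 4 pair differences behind each (red, 35S:GIF1 minus Col-0; blue, rGRF3x35S:GIF1 minus rGRF3; circles letter A, squares letter B). All 4 pairs lie on the same side of 0 for each of the 20 genes, which were taken for their low p-values, and STZ, the filled diamond, is the only one that passed.

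Sorting by size instead of p showed more low than high values. An effect of at least 1 on the log2 scale was found for 5 probe sets in the higher direction (0.0357% of those tested) and 41 in the lower (0.293%). The 41 were taken for the size of their effect, so counts of pairs and of overlap only describe them. Of the 41, 16 have exactly 1 gene and 27 were lower in all 4 pairs, beside 7.6% of all tested probe sets. Another count, 9 without overlap between the groups, stands beside 0.436%. Of the same 41, 23 had a log2 signal under 4 on at least 1 array and 17 were higher on the B arrays by at least 1. Beside the genes already given, they included PDF1.2b (AT2G26020), a second defensin gene, with log2 signals of 3.78 and 3.35 in 35S:GIF1 and 3.96 and 3.86 in rGRF3x35S:GIF1, against 5.84 and 3.78 in Col-0 and 8.89 and 6.48 in rGRF3. Its effect was -2.51 (adjusted p = 0.74), all 4 arrays with the transgene were under 4, and the array Col-0 B was too. PDF1.2b thus entered the tested set only through arrays without 35S:GIF1, where it was high. The probe set of PDF1.2b is of the type that can also bind transcripts of other genes, so it may read PDF1.2 as well. AT4G29780, a gene outside the naming rule that was picked after its values were seen, had no overlap. It had 5.32, 5.42, 4.96 and 4.99 on the arrays with 35S:GIF1, against 6.66, 5.90, 5.64 and 7.53 on those without (effect -1.26, adjusted p = 0.74). RING1 (-1.32), AT5G52760 (-1.61), AT1G65500 (-1.61), AT1G35710 (-1.23) and AT1G43910 (-1.12), also outside the rule, each had 1 pair of 4 in the other direction, because 35S:GIF1 A was above Col-0 A. The 5 probe sets of the higher direction were 246103_at, THI2.2, AT4G21870, 248197_at and 266693_at. AT4G21870, which encodes an HSP20-like chaperone, had no overlap, with 8.53, 8.56, 8.74 and 9.49 on the arrays with 35S:GIF1, against 8.07, 6.57, 7.82 and 7.99 on those without (effect 1.22, standard error 0.32, adjusted p = 0.74). Over all tested probe sets 0.6% did not overlap in that direction, and these 5 too were taken for their size.

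Whether rGRF3 alters the response to 35S:GIF1 was tested by the interaction, the effect with rGRF3 minus the effect without it. No probe set passed in limma (0%), and 480 had an unadjusted p under 0.05 (3.43%). With 2 arrays per genotype the intervals are wide, so this does not show that the response was alike. The lowest p-values among probe sets with exactly 1 gene belonged to AT5G04670 and AFR. AT5G04670 had log2 differences of 1.01 with rGRF3 and -0.29 without it (interaction 1.304, adjusted p = 0.998). AFR had -0.25 and -1.47 (interaction 1.23). On the opposite side, AT5G28630 had -0.11 with rGRF3 and 1.76 without it (interaction -1.87). Of the genes with large effects, PDF1.2 had -1.74 with rGRF3 and -1.15 without it, AT4G27280 had -1.60 in both and THI2.2 had 1.10 with rGRF3 and 0.95 without it. For PDF1.2 the 95% interval of the interaction was -1.63 to 0.44, for AT4G27280 -1.31 to 1.33 and for THI2.2 -0.76 to 1.06.

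**Figure D3:**
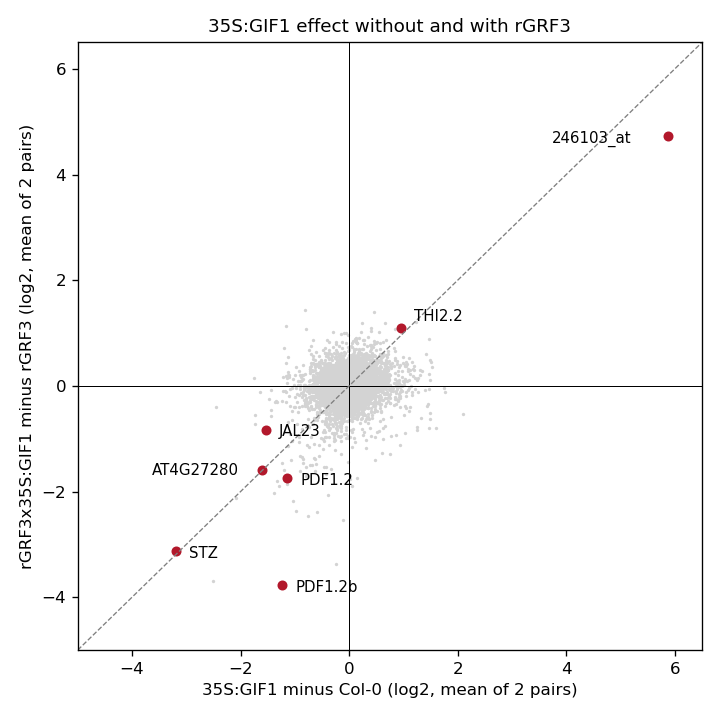
Each point is 1 of the 14005 tested probe sets, with the log2 difference of 35S:GIF1 minus Col-0 on the x axis and of rGRF3x35S:GIF1 minus rGRF3 on the y axis, each the mean of 2 pairs, and the dashed line marks equal values. AT4G27280 lies on the line, and STZ does too, with both genotypes carrying 35S:GIF1 near the floor. 246103_at lies above 4 on both axes, and PDF1.2b lies lower on the y axis than on the x axis, while no interaction passed.

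The 35S:GIF1 effect was also set against the rGRF3 effect of the same fit. The difference passed for 246103_at only (1 of 14005, 0.00714%), and 679 probe sets had an unadjusted p under 0.05 (4.85%). Among probe sets with exactly 1 gene, JAL23 and AT3G53980 had the lowest p-values, both with an adjusted p of 0.0761. AT3G53980, a lipid-transfer-like protein gene, had log2 signals of 5.34 and 6.69 in 35S:GIF1 and 6.95 and 9.52 in rGRF3x35S:GIF1, against 5.50 and 7.27 in Col-0 and 7.73 and 9.28 in rGRF3. It followed rGRF3 and the letter B, with an rGRF3 effect of 2.17, a letter difference of 1.81 and a 35S:GIF1 effect of -0.32. In the higher direction AT1G51080 had the lowest p among named genes, with a 35S:GIF1 effect of 0.20 and an rGRF3 effect of -0.70 (difference 0.90, adjusted p = 0.313).

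Gene lists were described by counts and medians, beside the median of 0.00 and the 50.4% of all tested probe sets above 0. Outside the C2H2 list, whose 1 tested member is STZ, no list member passed. Tubulins, the subunits of microtubules, had 6 of 7 tested members above 0 and a median log2 difference of 0.13. Only 1 of the 7, TUB6 (AT5G12250), had no overlap between the groups, beside 0.6% of all tested probe sets in that direction. TUB6 had log2 signals of 11.59 and 11.50 in 35S:GIF1 and 11.66 and 11.63 in rGRF3x35S:GIF1, against 11.26 and 11.22 in Col-0 and 11.45 and 11.38 in rGRF3 (effect 0.27, standard error 0.07, adjusted p = 0.74). TUB5 had 10.62, 11.14, 10.66 and 11.16 on the arrays with 35S:GIF1, against 10.24, 10.30, 10.41 and 10.95 on those without (effect 0.42, adjusted p = 0.74). Without each array in turn the tubulin median stayed between 0.09 and 0.18. Expansins and XTHs, which loosen and remodel cell walls, had 13 of 16 tested members above 0 and a median of 0.21, from 29 named on the array. EXLA1 had 0.75 (adjusted p = 0.845), which ran from 0.21 to 1.23 as single arrays were left out. EXPA8 had 0.73 (adjusted p = 0.74), which ran from 0.44 to 0.92. EXPA8 had log2 signals of 8.38 and 7.52 in 35S:GIF1 and 8.85 and 8.04 in rGRF3x35S:GIF1, against 7.94 and 5.85 in Col-0 and 8.66 and 7.42 in rGRF3, so the lowest value was on Col-0 B and the groups overlap.

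Serine carboxypeptidase-like genes had 13 of 14 tested members above 0, with a median of 0.10 that ran from 0.04 to 0.18 as single arrays were left out and was -0.03 in the pair of the A arrays with rGRF3. scpl31 had an effect of 0.82 and an rGRF3 effect of 2.06. Its log2 difference was 0.29 in the lines with rGRF3 and 1.35 in those without. The abscisic acid and dehydration list had 5 of 6 tested members above 0 and a median of 0.36. The dehydrin gene LTI30 had 0.66 (standard error 0.54), which ran from 0.13 to 1.27 as single arrays were left out, and the cysteine proteinase gene CP1 had 0.39 (standard error 0.11). Neither passed. In the auxin response list 6 of 7 tested members were above 0, with a median of 0.07 that ran from -0.01 to 0.18 as single arrays were left out and changed sign in 2 of 21 alternative settings. WES1 (AT4G27260), a GH3 enzyme gene whose product conjugates auxin to amino acids, had an effect of 0.70 (adjusted p = 0.741) and a larger rGRF3 effect of 1.09. The log2 difference of WES1 was 0.37 in the lines with rGRF3 and 1.02 in those without, and -0.15 in the pair of the B arrays with rGRF3. IAGLU (AT4G15550), which encodes an enzyme that conjugates auxin to glucose, was the member below 0. IAGLU had log2 signals of 4.33, 4.10, 4.34 and 4.34 on the arrays with 35S:GIF1, against 5.75, 5.37, 4.90 and 4.36 on those without, where Col-0 was high and rGRF3 B was at the level of the arrays with 35S:GIF1. Its effect was -0.82 (standard error 0.22, adjusted p = 0.74), being -0.29 with rGRF3 and -1.35 without it.

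The jasmonate and defensin list had 2 of 4 tested members below 0, PDF1.2 and PDF1.2b, beside 49.6% of all probe sets. The other 2 were LCR68 (0.02) and LCR69 (0.07), so the list did not move together. UDP-glycosyltransferases had 14 of 22 tested members below 0 (median -0.07, UGT72E1 0.49, UGT78D2 -0.38) and beta-glucosidases 7 of 9 (median -0.08, BGLU33 -0.40). The 4 tested anthocyanin and flavonoid genes had effects of -0.45 (AT5MAT), -0.40 (AT4G14090), -0.37 (UF3GT) and -0.24 (DFR), but the sign depended on the lines. Their pair medians were 0.04 and 0.29 for rGRF3x35S:GIF1 minus rGRF3, and -0.41 and -1.38 for 35S:GIF1 minus Col-0. Their median letter difference, B minus A, was 4.61. AT5MAT and UF3GT were under a log2 signal of 4 on all 4 A arrays and AT4G14090 on 3, so the medians of the A pairs rest largely on values too low to size. SWI/SNF subunits, the chromatin remodellers that GIF1 is known to recruit, had 2 of 5 tested members above 0 and a median of -0.06, which ran from -0.09 to 0.00 as single arrays were left out. SWI3A had -0.21 (adjusted p = 0.83), which ran from -0.31 to -0.10. The cell-cycle and DNA replication lists had 1 and 2 tested members, too few to describe proliferation here. Histones had 2 of 6 above 0, with a median of -0.04 that changed sign in 4 of the 21 alternative settings. The TRM and TBL list, mostly of microtubule-associated TRM and wall-polymer acetylating TBL proteins, had 17 of 26 above 0 and a median of 0.05. It also holds TRM82 (-0.07), which shares the TRM symbol but is not of the microtubule-associated family. Of the stomatal lineage markers, SPCH (-0.02), MUTE (-0.18) and FMA (-0.16) were all at or below 0, and none passed.

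**Figure D4:**
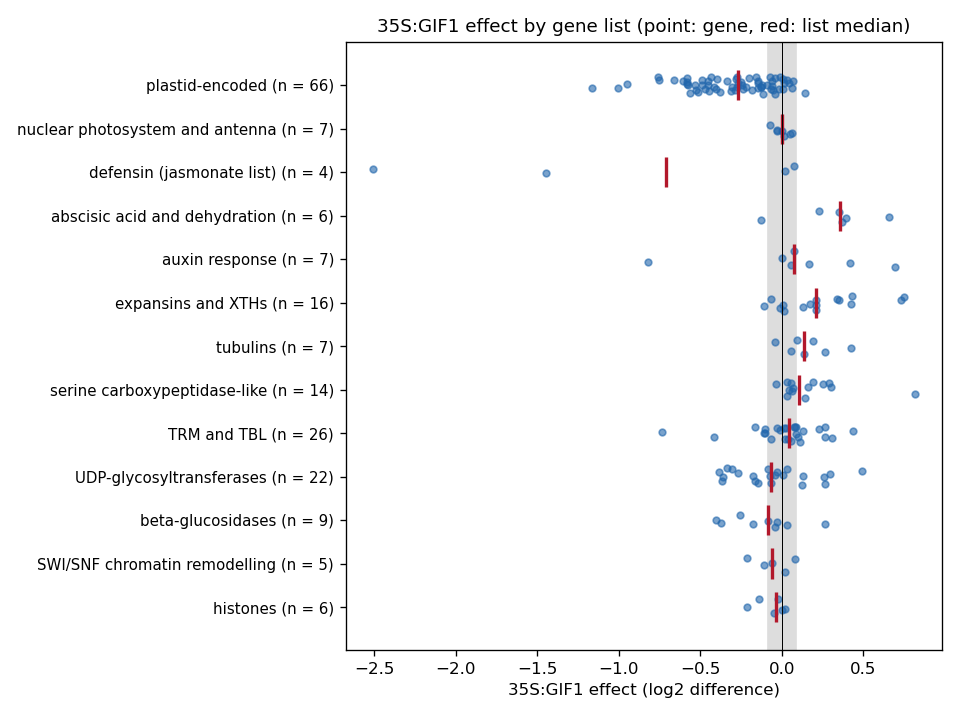
The 35S:GIF1 effect (log2 difference) of each tested member of 13 gene lists, 1 probe set per gene, with the list's median as a red bar and a grey band for the interquartile range of all tested probe sets. Members of the plastid-encoded list lie mostly left of 0 (58 of 66), tubulins, expansins and XTHs and serine carboxypeptidase-like genes mostly right of 0, and none of the members shown passed.

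Plastid-encoded transcripts, which code for parts of the photosystems, the ATP synthase, the plastid NADH dehydrogenase-like complex and the plastid's own RNA polymerase and ribosome, were the list with the most members on the low side. Of 66 tested genes, 58 had a 35S:GIF1 effect below 0, beside 49.6% of all probe sets, and the median was -0.27. None passed, and 26 had an effect below 0 with an unadjusted p under 0.05, beside 2.91% of all probe sets. In all 4 pairs 13 were lower, beside 7.6% of all probe sets. The pair medians were 0.06 (letter A) and -0.31 (letter B) for 35S:GIF1 minus Col-0, and -0.43 and -0.40 for rGRF3x35S:GIF1 minus rGRF3. The list therefore was lower in 3 of the 4 pairs and not in the first. Its median level ran from 10.69 on rGRF3x35S:GIF1 B to 11.65 on 35S:GIF1 A among the arrays with the transgene, against 11.03 on rGRF3 B to 11.58 on Col-0 A among those without, and these ranges overlap. Leaving out single arrays moved the median effect between -0.37 and -0.20.

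By complex, all 9 tested genes of the NADH dehydrogenase-like complex (median -0.45) and all 4 of the plastid RNA polymerase (median -0.45) were below 0. ATP synthase genes had 5 of 6 below 0 (median -0.48), photosystem I 4 of 5 (median -0.29), photosystem II 10 of 15 (median -0.15), cytochrome b6f 5 of 5 (median -0.12) and plastid ribosomal proteins 13 of 14 (median -0.14). psbB, which encodes the CP47 antenna protein of photosystem II, had log2 signals of 9.51 and 7.35 in 35S:GIF1 and 7.71 and 6.83 in rGRF3x35S:GIF1, against 9.65 and 8.81 in Col-0 and 9.46 and 8.13 in rGRF3. Its effect was -1.16 (standard error 0.25, adjusted p = 0.698), with a pair difference of only -0.14 between 35S:GIF1 A and Col-0 A. psaC, an iron-sulphur subunit of photosystem I, had 8.70, 7.32, 7.20 and 6.66 on the arrays with 35S:GIF1, against 8.86, 8.46, 8.53 and 8.06 on those without (effect -1.01, adjusted p = 0.698). psbA, which encodes the D1 protein, had 6.67, 5.99, 6.52 and 5.52, against 6.98, 6.46, 7.08 and 6.43 (effect -0.56, adjusted p = 0.698). For all 3 the groups overlap. The 7 tested nuclear genes of the photosystems and antennae had a median of 0.00, with 4 above 0.

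The plastid list also had a median of -0.67 for the letter B minus A and of -0.23 for rGRF3. The control probe set for large-subunit ribosomal RNA had log2 signals of 7.88 and 6.66 in 35S:GIF1 and 10.90 and 6.35 in rGRF3x35S:GIF1, against 6.22 and 7.01 in Col-0 and 8.23 and 6.76 in rGRF3. That is 7.94 ± 2.08 with the transgene and 7.05 ± 0.85 without it (SD, n = 4 each). This control was higher with the transgene in both A pairs and lower in both B pairs. Whether it bears on the plastid-encoded values was not tested. The fit holds a term for the letter, and both letters are on each side of the comparison. Whether the 35S:GIF1 effect on plastid-encoded transcripts differs between the letters was not tested.

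**Figure D5:**
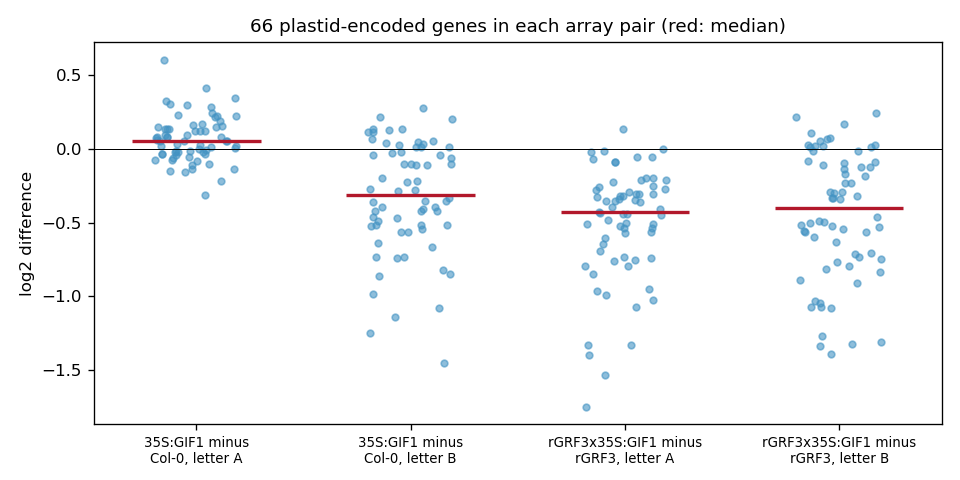
Log2 differences of the 66 tested plastid-encoded genes within each of the 4 array pairs, with the median as a red bar. The medians are 0.06, -0.31, -0.43 and -0.40, so the pair of 35S:GIF1 A and Col-0 A stands apart from the other 3.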

How the data were processed

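RNA of 8 samples, 2 per genotype, was measured on Affymetrix ATH1 arrays. The deposited log2 values were made by the authors with GCRMA, a background correction, between-array normalisation and probe summary, per the submitters' processing notes, which also name limma. Versions and scan dates are not given in the sources used here. Of the columns, the Col-0 ones hold 9 decimals and the others 3, and why is not stated. If Col-0 was processed apart, that difference enters the 35S:GIF1 effect. Low values were not floored again.

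After the 64 Affymetrix controls were left out, the 14005 probe sets that reached 4 on the log2 scale on 2 or more of the 8 arrays were fitted with limma 3.58.1 in R 4.3.3 (lmFit and eBayes, no trend, not robust; residual df 4, prior df 3.01), with terms for letter, rGRF3 and 35S:GIF1. The interaction came from a fit that adds the product term. P-values were adjusted by Benjamini-Hochberg over all 14005 and called at 0.05. The code was tested on simulated data. Pairing by letter was checked with the correlation of A minus B deviations between genotypes, which was 0.593 to 0.754 over the 6 genotype pairs, so the letter was kept as a block. This pairing comes from the data. Nothing says that A and B were separate plants or cultures, so p-values measure the spread between these samples only. That spread may be technical, and precision is limited by how few arrays there are.

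Genes come from the platform annotation (13513 probe sets with exactly 1 gene, 503 with several, 8730 with none), of which 13436 matched the gene table of TAIR10.1 by Entrez identifier. In lists, the probe set with the highest mean signal stands for a gene. The genes named are up to 12 per direction that passed with the same sign in all 4 pairs, filled up to 10 by lowest p, 2 per direction without a single gene, 4 per direction of the interaction and of the 35S:GIF1 minus rGRF3 contrast, and the 2 largest changes of a list. The comparison, the 44 gene lists (9 of them markers) and the naming rule were chosen with earlier results of these data known. One of the lists is not reported here. A planned count of a promoter motif was not made here, since no sequence was used. Figures were drawn with matplotlib 3.10.9.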

Additional observations from a re-analysis of the deposited data

Results flagged for a closer look

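For 8 named genes both pairs with rGRF3 moved one way and both pairs without it the other way, and for none did the interaction pass in limma (adjusted p = 0.998 for the first 5). The interaction, the effect with rGRF3 minus the effect without it on the log2 scale, was 1.304 for AT5G04670, 1.13 for AT1G64610, 1.08 for AT1G27200, -1.47 for AT3G05170 and -0.82 for AT4G02550. AT3G05170 was under a log2 signal of 4 on 6 arrays and AT4G02550 on 4, so these sizes are not exact. It was 0.98 for AT4G14090, of the anthocyanin list, 0.61 for LHCB4.3, of the antenna list, and 0.19 for RCA. The first 5 were named for a low interaction p, so opposite signs are a description of them.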

How the results depend on the processing

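Over 21 alternatives no result named here reversed after passing. The count of 1 probe set higher became 0 with no filter, an ordinary linear model, letter A arrays alone or letter B arrays alone (246103_at: adjusted p = 0.403, 0.582, 0.897 and 0.879), and ran from 1 to 1 as single arrays were left out. The count of 1 lower became 0 under the same 4 settings (STZ: adjusted p = 0.513, 0.723, 0.897 and 0.879), with a term for each genotype, in the lines without rGRF3 alone (0.676) or with rGRF3 alone (0.211), and under a stricter filter on all 8 arrays, which leaves STZ untested, and ran from 0 to 1 as single arrays were left out. Without the replicate block both counts stayed at 1 (adjusted p = 0.00289 and 0.00923). Interaction calls stayed at 0, and the single call of 35S:GIF1 minus rGRF3 became 0 with no filter. Of the 78 probe sets named for the main effect or a list, the 2 that passed included, 52 kept their direction in every setting available. The tubulin, expansin and XTH, serine carboxypeptidase-like, SWI/SNF, TRM and TBL, abscisic acid and plastid-encoded medians kept their sign in all 21. Those of auxin response changed it in 2, of histones in 4, of nuclear photosystem genes in 7, and of the jasmonate and defensin, beta-glucosidase, anthocyanin and stomatal lists in 1 each. Low signals limit the sizes of STZ, PDF1.2b, AT4G29420, AT5G39020, AT3G05170, AT4G02550 and the anthocyanin genes.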
